A study of Mus musculus with 63 samples.

Results

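The 7 genes described here carry bile acids through the absorptive cell of the distal small intestine, the ileum, and turn their arrival into a hormonal signal: Slc10a2, Fabp6, Slc51a, Slc51b, Nr1h4, Nr0b2 and Fgf15. They were picked by gene symbol out of 54752 genes in the count tables, and each symbol occurred once. The choice was made with measured values in view, because the organoid lines differed in these genes and because Fgf15 was low in Cre-induced organoids grown with Wnt3-conditioned medium (Wnt3-CM) and in organoids with a kinase-dead CDK19. Those 3 sets of values are therefore given as descriptions with no test, and tests are kept to the organoid time course and to the intestinal epithelial cells of mice.

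The data were RNA-seq libraries of C57BL/6 mouse small intestinal organoids and intestinal epithelial cells (IECs), with 3 libraries in each of 19 groups. CDK8 and its paralog CDK19 are the kinases of Mediator, the complex that links transcription factors to RNA polymerase II. Cdk8 was removed by floxed alleles (Cdk8fl/fl) and VillinCreERT2, a tamoxifen-activated Cre whose villin promoter is active in intestinal epithelium. Cdk19-/- animals carried a germline Cdk19 knockout.

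For the time course, organoids of 1 VillinCreERT2/Cdk8fl/fl/Cdk19-/- line were given 100 nM 4-hydroxytamoxifen (4-OHT) or 0.001% ethanol (EtOH) and collected at days 3, 5, 7 and 10. Both arms therefore carried the Cdk19 knockout, and 4-OHT added the deletion of Cdk8 (CDK8iIEC-KO/Cdk19-/-). Organoids of the same genotype were collected at day 10 in Wnt3-CM under EtOH or 4-OHT. The kinase-dead organoids (Cdk19D173A/-) were VillinCreERT2/Cdk8fl/fl with 1 Cdk19 allele knocked out and the other carrying the D173A substitution, at day 7 under EtOH or 4-OHT, and their libraries were tied to this genotype by elimination. A further 5 organoid lines all received 4-OHT and were collected at day 7, namely VillinCreERT2, VillinCreERT2/Cdk8fl/fl (CDK8iIEC-KO), Cdk8fl/fl/Cdk19-/- without Cre, CDK8iIEC-KO/Cdk19-/- and C57BL/6 without Cre. IECs came from VillinCreERT2 and CDK8iIEC-KO/Cdk19-/- mice 14 days after the last tamoxifen dose (80 mg/kg). The 3 libraries of an organoid group came from a single line, so p-values measure the spread between libraries of that line, and the genotype and the line cannot be told apart among the 5 lines. No VillinCreERT2 line without floxed Cdk8 was given EtOH. Effects of 4-OHT, of active Cre and of Cdk8 loss therefore cannot be told apart where 4-OHT is compared with EtOH.

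Libraries held 15485959 to 32909565 gene counts. Cdk8 was counted at 39.3 ± 0.664 CPM under EtOH and 36.8 ± 2.55 under 4-OHT at day 3 (mean ± SD, n = 3), and counts over a whole gene cannot show the loss of a few exons, so they did not check the labels. Cdk19 counts did not bear out the Cdk19-/- label either, with group means of 38.1 to 58.3 CPM in the time course, 27.7 ± 0.102 CPM in CDK8iIEC-KO/Cdk19-/- against 28.0 ± 0.944 CPM in VillinCreERT2 lines, and 16.6 ± 2.10 against 19.2 ± 1.73 CPM in IECs (SD, n = 3). In the Cdk8fl/fl/Cdk19-/- line Cdk19 was at 25.5 ± 0.767 CPM against 30.9 ± 3.10 CPM in C57BL/6, lower without overlap, as were 15.7% of genes. The limit of whole-gene counts holds for Cdk19 as well. Genotypes are therefore given as labelled. CPM is the count after each library was brought to the same scaled total. A gene was called higher or lower where edgeR's quasi-likelihood test gave a Benjamini-Hochberg adjusted p under 0.05 and the fold change was over 1.5, and "rose" and "fell" are kept for such calls.

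Bile acids are made in the liver from cholesterol and are reclaimed almost entirely in the ileum. Slc10a2 (ASBT) takes them up with sodium at the apical membrane, Fabp6 (the ileal bile acid binding protein) carries them through the cytosol, and the Slc51a and Slc51b proteins (OSTα and OSTβ) join as the exporter of the basolateral membrane. Inside the cell they activate Nr1h4, the nuclear receptor FXR, which acts as a dimer with RXR and raises Fabp6, Slc51a, Slc51b, Nr0b2 and Fgf15. Nr0b2 (SHP) is a repressor that lacks a DNA-binding domain. Fgf15 is secreted, reaches the liver through the portal vein and lowers bile acid synthesis there.

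All 7 genes were placed on GRCm38 with GENCODE. Fabp6 lies at chr11:43596049-43601540 and Slc10a2 at chr8:5083219-5105351, both on the minus strand with no overlapping gene. Slc51a (chr16:32474504-32487879, minus strand) shares exonic bases with Pcyt1a on the other strand, and Slc51b (chr9:65412714-65422955, minus strand) with Rasl12. Nr1h4 (chr10:89454234-89533585, minus strand) and Nr0b2 (chr4:133553376-133556536, plus strand) overlap no other gene. Fgf15 (chr7:144896531-144900953, plus strand) is overlapped by the antisense transcripts Gm26793 and Gm39119. Whether the counting used strand was not given in the sources used here, so reads of these overlapping pairs could not be told apart.

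The RefSeq promoter table (GRCm38.p6) held 6 of the 7 genes, and the promoters of Fabp6 and Slc10a2 are printed because these were the most line-dependent members and their sequences hold a motif match. The letters searched on both strands were GGTNANTNACC, an inverted repeat with a 1-base spacer (IR-1) of the class FXR and RXR bind, and TTAATNATTAA, a palindrome of the class HNF1 factors bind. Each pattern is its own reverse complement, and no match of one overlapped a match of the other. Capitals mark the matches, 5′ to 3′ on the minus strand, upstream of the start. Fabp6 is printed at chr11:43601563-43601812, up to its RefSeq start, and Slc10a2 at chr8:5105352-5105537, up to its GENCODE start, which lies before the RefSeq start.
Fabp6: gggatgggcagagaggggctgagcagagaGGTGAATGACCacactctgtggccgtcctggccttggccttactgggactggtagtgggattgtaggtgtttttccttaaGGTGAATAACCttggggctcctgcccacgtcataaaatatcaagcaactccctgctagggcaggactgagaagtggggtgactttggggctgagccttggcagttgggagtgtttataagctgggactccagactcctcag
Slc10a2: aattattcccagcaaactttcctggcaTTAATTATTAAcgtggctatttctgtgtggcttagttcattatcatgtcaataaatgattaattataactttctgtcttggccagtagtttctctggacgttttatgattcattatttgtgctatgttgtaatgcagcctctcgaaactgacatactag
The Fabp6 matches, GGTGAATGACC and GGTGAATAACC, began 221 and 141 bases before the RefSeq start, counted from the first base of the match. The Slc10a2 match, TTAATTATTAA, began 159 bases before the GENCODE start and 223 before the RefSeq start. Slc51b held GGTCATTCACC, beginning 186 bases before its RefSeq start and lying across its GENCODE start. No match of either pattern was found in the Slc51a, Nr0b2 and Nr1h4 windows. IR-1 letters occurred in 86 of 32851 promoters of the same length (0.262%) and the HNF1-type letters in 40 (0.122%). These are matches of letters and not shown to be bound.

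In the time course the members responded to 4-OHT on different days and in different directions. Slc10a2 rose at days 3, 5 and 7 after 4-OHT, Slc51a fell at day 3, Slc51a, Slc51b and Nr1h4 rose at days 7 and 10, and Fgf15 fell at days 3, 5 and 10. Of the 6 members that passed the filter on low counts, 3 were called at day 3, 1 higher and 2 lower, where 12.4% of 15447 tested genes were called (6.42% higher and 5.95% lower). At day 5, 2 were higher and 1 lower, against 13.2% of genes (8.58% higher and 4.62% lower). At day 7, 5 were higher and 0 lower, against 18.3% (9% higher and 9.25% lower). At day 10, 3 were higher and 1 lower, against 15.8% (8.86% higher and 6.92% lower). Nr0b2 did not pass, with 0 to 6 counts in each of the 24 libraries.

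**Figure D1:**
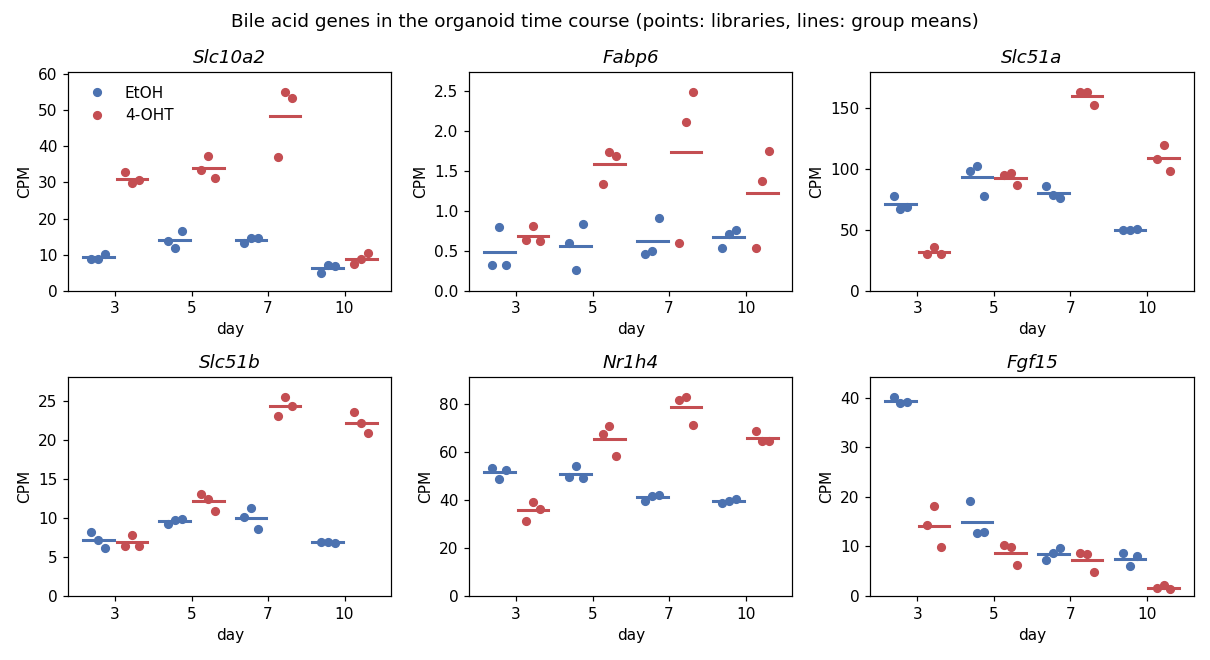
CPM (linear axes from 0) of the 6 members that passed the filter, by day, in EtOH (blue) and 4-OHT (red) libraries of the time course, where points are libraries and lines are means of 3. Slc10a2 was higher under 4-OHT in every library at days 3, 5 and 7, and Fgf15 under EtOH was highest at day 3 (38.9 to 40.1 CPM).

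Slc10a2, the apical uptake transporter, was counted at 8.80, 8.65 and 10.2 CPM in the EtOH libraries of day 3 and at 32.9, 29.8 and 30.6 in the 4-OHT libraries. The groups did not overlap, and the log2 fold change was 1.75 ± 0.15 (SE, adjusted p = 8.95e-10, edgeR). At day 5 the EtOH libraries held 13.8, 11.8 and 16.7 CPM and the 4-OHT libraries 33.4, 37.3 and 31.2, a log2 fold change of 1.27 ± 0.14 (adjusted p = 1.90e-07, edgeR). Every 4-OHT library again exceeded every EtOH library. At day 7 the values were 13.3, 14.5 and 14.6 CPM under EtOH and 37.2, 55.2 and 53.3 under 4-OHT, with a log2 fold change of 1.78 ± 0.14 (adjusted p = 1.97e-10, edgeR). By day 10 both groups had come down, to 4.94, 6.97 and 6.95 CPM and to 7.30, 8.70 and 10.5 CPM. The day 10 groups still did not overlap, but the log2 fold change of 0.50 ± 0.17 was under the fold cutoff (adjusted p = 0.0211, edgeR), and it came to 0.61 without 4-OHT day 10 library 1, which passed both cutoffs.

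Fabp6, the cytosolic carrier, was close to the detection limit in this line, with 5 to 47 counts per library. Under EtOH it stood at 0.253 to 0.913 CPM over all days, and under 4-OHT at 0.533 to 2.49 CPM. It rose at day 5, from 0.595, 0.253 and 0.834 CPM to 1.33, 1.73 and 1.69 CPM (log2 fold change 1.49 ± 0.46, adjusted p = 0.0120, edgeR). That call was lost without EtOH day 5 library 2 (log2 fold change 1.12, adjusted p = 0.0712, edgeR). Fabp6 was also called at day 7, where 0.454, 0.494 and 0.913 CPM under EtOH overlapped 0.593, 2.11 and 2.49 under 4-OHT (log2 fold change 1.48 ± 0.45, adjusted p = 0.00782, edgeR). Leaving out 4-OHT day 7 library 3 gave 1.11 (adjusted p = 0.0658, edgeR). At day 3 its log2 fold change was 0.51 (adjusted p = 0.497, edgeR), and at day 10 it was 0.87 (adjusted p = 0.130, edgeR), or 1.22 (adjusted p = 0.0336, edgeR) without 4-OHT day 10 library 1.

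Slc51a, the α subunit of the exporter, changed direction between day 3 and day 10. It fell at day 3, from 77.4, 67.4 and 68.5 CPM under EtOH to 30.2, 35.6 and 29.9 under 4-OHT (log2 fold change -1.16 ± 0.09, adjusted p = 5.55e-11, edgeR). At day 5 the groups overlapped, with 98.6, 102 and 78.2 CPM against 95.0, 96.9 and 86.6 (adjusted p = 0.983, edgeR). At day 7, EtOH libraries held 86.1, 78.6 and 76.3 CPM and 4-OHT libraries 164, 163 and 153, a rise of 0.99 ± 0.09 on the log2 scale (adjusted p = 2.61e-10, edgeR). The rise at day 10 was 1.12 ± 0.09 (adjusted p = 3.81e-11, edgeR), from 50.1, 49.5 and 50.9 CPM to 108, 120 and 98.3. Pcyt1a, the overlapping gene on the other strand, averaged 89.1 CPM under EtOH and 65.9 under 4-OHT at day 3, and 99.7 and 116 at day 10, so it moved in the same directions by less, and its part in the Slc51a counts was not tested.

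Slc51b, the β subunit, was not called at day 3, when Slc51a fell. Its day 3 values of 8.15, 7.22 and 6.12 CPM under EtOH and 6.44, 7.82 and 6.40 under 4-OHT overlapped (log2 fold change -0.06, adjusted p = 0.778, edgeR). At day 5 the libraries separated, at 9.25, 9.76 and 9.90 CPM against 13.0, 12.5 and 10.9, though the log2 fold change of 0.33 stayed under the fold cutoff (adjusted p = 0.0242, edgeR). Slc51b then rose from 10.2, 11.2 and 8.52 CPM to 23.1, 25.5 and 24.4 at day 7 (log2 fold change 1.29 ± 0.11, adjusted p = 1.79e-10, edgeR). At day 10 it rose from 6.92, 6.92 and 6.74 CPM to 23.6, 22.2 and 20.9 (1.70 ± 0.12, adjusted p = 1.10e-12, edgeR). The 3 EtOH libraries of day 10 lay close together, and every 4-OHT library was far above them. Rasl12, which overlaps Slc51b, averaged at most 1.9 CPM in any time-course group.

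Because the exporter works as a pair, the subunits were also compared per kilobase of exon. Under EtOH, Slc51a stood at 22.2 ± 1.72 CPM per kilobase and Slc51b at 10.1 ± 1.44 at day 3 (mean ± SD, n = 3), and at 15.7 ± 0.224 and 9.68 ± 0.146 at day 10. Under 4-OHT they were at 9.98 ± 1.00 and 9.71 ± 1.14 CPM per kilobase at day 3, 29.0 ± 1.71 and 17.1 ± 1.58 at day 5, 50.0 ± 1.93 and 34.3 ± 1.74 at day 7, and 34.0 ± 3.35 and 31.4 ± 1.88 at day 10. Slc51a was above Slc51b by more than their spread on every day under EtOH and at days 5 and 7 under 4-OHT, and the levels lay within their spread at days 3 and 10 under 4-OHT.

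Nr1h4, the bile acid receptor FXR, was abundant throughout, at 31.5 to 83.1 CPM. At day 3 it was at 53.5, 48.7 and 52.7 CPM under EtOH and 31.5, 39.4 and 36.4 under 4-OHT, a log2 fold change of -0.53 ± 0.08 that was under the fold cutoff (adjusted p = 5.22e-06, edgeR). Without 4-OHT day 3 library 2 it was -0.61 and passed. Day 5 values were 49.8, 54.4 and 49.1 CPM against 67.8, 71.1 and 58.4, again not overlapping and under the fold cutoff at 0.36 (adjusted p = 0.000534, edgeR). Nr1h4 rose at day 7, from 39.8, 41.6 and 42.3 CPM to 81.9, 83.1 and 71.4 (0.93 ± 0.08, adjusted p = 1.40e-10, edgeR), and at day 10, from 38.7, 39.5 and 40.4 CPM to 68.7, 64.6 and 64.9 (0.74 ± 0.08, adjusted p = 1.04e-08, edgeR). The receptor was therefore higher in every 4-OHT library from day 5 on.

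Fgf15, the secreted hormone, was lower under 4-OHT at 3 of the 4 days. At day 3 it fell from 40.1, 38.9 and 39.2 CPM to 14.3, 18.1 and 9.88 (log2 fold change -1.48 ± 0.21, adjusted p = 1.33e-05, edgeR). At day 5 it fell from 19.1, 12.7 and 12.8 CPM to 10.2, 9.82 and 6.17 (-0.76 ± 0.23, adjusted p = 0.0134, edgeR). This call did not survive leaving out EtOH day 5 library 1 (-0.57, adjusted p = 0.0706, edgeR) or 4-OHT day 5 library 3 (-0.58, adjusted p = 0.0617, edgeR). Day 7 values overlapped, at 7.21, 8.65 and 9.59 CPM against 8.73, 8.39 and 4.87 (-0.21 ± 0.25, adjusted p = 0.527, edgeR). At day 10 it fell again, from 8.57, 6.01 and 8.01 CPM to 1.49, 2.11 and 1.44 (-2.16 ± 0.32, adjusted p = 1.12e-05, edgeR). The antisense transcript Gm26793 was lower under 4-OHT on the same days, with means of 3.20 and 1.79 CPM at day 3 and 1.07 and 0.420 at day 10. Gm39119 was at most 0.30 CPM.

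**Figure D2:**
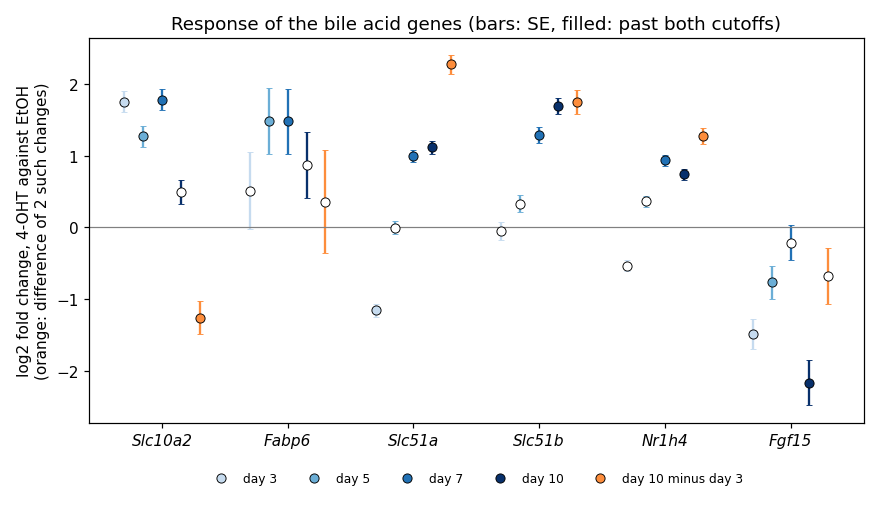
Log2 fold change of 4-OHT against EtOH for 6 members at each day (blue shades), and the day 10 change minus the day 3 change (orange), with bars of 1 SE and filled points where both cutoffs were passed. Slc51a ran from -1.16 at day 3 to 1.12 at day 10, while Slc10a2 ran from 1.75 to 0.50 and Fgf15 was called lower at days 3, 5 and 10 and not at day 7 (-0.21).

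Whether the response itself differed between day 10 and day 3 was tested as a contrast in the same fit, in which 26.3% of genes were called (13.9% higher and 12.4% lower). Of the 6 members, 3 were called higher, Slc51a (2.27 ± 0.13, adjusted p = 2.56e-14, edgeR), Slc51b (1.75 ± 0.17, adjusted p = 1.47e-09) and Nr1h4 (1.27 ± 0.11, adjusted p = 2.51e-10). Slc10a2 was called lower (-1.26 ± 0.23, adjusted p = 6.46e-05, edgeR). At day 7 its response was still 1.78, and that of Nr1h4 (0.93) was above its value at day 10 (0.74), so the contrast compares the first and last days alone. Fgf15 (-0.68 ± 0.39, adjusted p = 0.169, edgeR) and Fabp6 (0.36, adjusted p = 0.717, edgeR) were not called, so their responses were not shown to differ between the days.

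The uninduced organoids also changed with time in culture. Between day 3 and day 10 under EtOH, Fgf15 fell from 38.9 to 40.1 CPM to 6.01 to 8.57 CPM (log2 fold change -2.38 ± 0.23, adjusted p = 1.16e-08, edgeR). It was the single member called of 6, against 38.4% of genes, and 3 were called with upper quartile scaling or with at least 10 counts in every library. Slc10a2 (-0.56, adjusted p = 0.00607, edgeR), Slc51a (-0.50, adjusted p = 1.34e-05, edgeR) and Nr1h4 (-0.38, adjusted p = 0.000113, edgeR) passed on the p-value but not on the fold. Slc51b was at -0.06 and Fabp6 at 0.46 on the log2 scale. These EtOH libraries are also the controls of the responses at day 3 and day 10, so the 2 sets of values are not independent.

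Other genes of bile acid sensing and transport were read from a list of 30, of which 25 passed the filter. At day 3, 2 of these were called higher and 10 lower, where the median of the 25 log2 fold changes was -0.41 and those over all genes lay between -0.02 and 0.03 in every comparison of the time course. Among those that fell at day 3 were Cyp3a11 (-1.93), a cytochrome P450 of bile acid and drug oxidation, Nr1i3 (-1.66), the xenobiotic receptor CAR, Ugt1a1 (-1.60), which glucuronidates bilirubin, and the organic anion transporter Slco2b1 (-1.55). Only Malrd1 (0.69), which is known to raise secretion of the Fgf15 protein, was called at day 5. At day 7, 6 were higher and 1 lower, among them Malrd1 (1.26), Cyp3a13 (0.82) and the export pump Abcc3 (0.70), while the FGF receptor Fgfr4 fell (-0.63).

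At day 10 the count was again 6 higher and 1 lower, with a median of 0.37. Baat (1.59), which conjugates bile acids to amino acids, Nr1i3 (0.87), Abcg2 (0.85), Sult2b1 (0.77), Malrd1 (0.75) and Cyp3a13 (0.64) rose. The conjugate exporter Abcc4 fell (-0.81), after a rise of 0.65 at day 3. In the day 10 minus day 3 contrast 14 of the 25 were higher and 1 lower, with a median of 0.76. The largest differences among those called were those of Baat (3.24), Nr1i3 (2.53), Cyp3a11 (2.34) and Slco2b1 (2.06), and Abcc4 was the one that went down (-1.46). Cyp7a1 and Cyp8b1, the hepatic enzymes of bile acid synthesis, did not pass the filter, nor did Abcb11, Abcb4 and Gpbar1.

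Markers of absorptive cells also moved between the arms. The summed level of 12 enterocyte genes, among them Alpi, Sis and Anpep, was 7787 to 8514 CPM under EtOH and 3887 to 4501 under 4-OHT at day 3, where 6 of the 12 were called lower. At day 10 it was 7823 to 9567 CPM and 10204 to 12148 CPM, with 6 of 12 called higher. At day 5 it overlapped, at 8988 to 12611 and 10375 to 10776 CPM (4 of 12 called higher), and at day 7 it was 9429 to 11473 and 12842 to 15363 CPM (5 of 12 called higher). The day 10 minus day 3 contrast had 11 of 12 higher with a median of 1.36. Of 10 further genes typical of the distal small intestine, 5 fell at day 3, 2 rose at day 5, and 5 rose and 1 fell at both day 7 and day 10. Of 16 tested genes typical of the proximal small intestine, 11 fell at day 3, 1 rose and 5 fell at day 5, 3 rose and 1 fell at day 7, and 8 rose and 1 fell at day 10. The part of these shifts in the results for the members was not tested, and in whole-organoid RNA more cells of a type and more RNA per cell cannot be told apart. Markers of crypt cells fell beside Fgf15 at day 10, where 5 Paneth cell genes summed to 7973 to 8150 CPM under EtOH and 2080 to 2467 under 4-OHT (5 of 5 called lower) and 4 stem cell genes to 2952 to 3188 and 1528 to 1743 CPM (3 of 4 lower). At day 3, when Fgf15 also fell, none of the 5 Paneth genes was called, with sums of 3531 to 4133 and 3842 to 4591 CPM, and 1 stem cell gene was called higher. At day 5, when Fgf15 fell too, the Paneth sums were 4681 to 5885 and 2450 to 2772 CPM, and at day 7, when it was not called (-0.21), 4739 to 5772 and 1764 to 1964 CPM, with 5 of 5 Paneth and 3 of 4 stem cell genes called lower on both days. Of 4 proliferation genes, 0, 1, 3 and 2 were called lower at days 3, 5, 7 and 10, and of 5 goblet cell genes 0, 1, 1 and 1. None of either list was called higher. At day 10 the proliferation sums were 784 to 867 and 479 to 503 CPM, and the goblet sums 3262 to 3555 and 1968 to 2201 CPM. The part of these cells in the Fgf15 result was not tested.

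By Pearson correlation of log2 CPM over the 8 time-course group means, among 10161 genes, the patterns most like that of Fgf15 were those of Cd177 (r = 0.99), 2610035D17Rik (0.98), A430033K04Rik (0.97), Ehbp1 (0.97) and Zbtb12 (0.97). For Slc51a they were Gng12 (0.99), Cyp2d26 (0.99), Tm4sf5 (0.98), Ces2e (0.98) and Cyp4f16 (0.98). Slc10a2 was most like Flrt3 (0.99), Gm28512 (0.98), Chrna4 (0.98), Oasl1 (0.98) and Myo1e (0.98). These are rankings over 8 points that share days and treatments and carry no test.

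The 5 organoid lines collected at day 7 after 4-OHT differed most in Fabp6 and Slc10a2. Fabp6 was at 210, 306 and 111 CPM in VillinCreERT2, at 35.6, 33.2 and 48.9 in Cdk8fl/fl/Cdk19-/-, at 5.73, 33.4 and 18.0 in CDK8iIEC-KO/Cdk19-/- and at 5.78, 5.95 and 8.03 in CDK8iIEC-KO. In C57BL/6 it was at 0.190, 0.454 and 0.0581 CPM, which is 1 to 8 counts. The line means of 209 ± 97.1 and 0.234 ± 0.202 CPM (SD, n = 3) for VillinCreERT2 and C57BL/6, both with intact Cdk8 and Cdk19, bounded all the others.

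Slc10a2 followed the same order of lines. It was at 73.4, 110 and 34.6 CPM in VillinCreERT2, 35.3, 42.0 and 45.3 in Cdk8fl/fl/Cdk19-/-, 23.1, 35.4 and 26.9 in CDK8iIEC-KO/Cdk19-/-, 10.7, 14.3 and 17.0 in CDK8iIEC-KO and 2.47, 2.10 and 1.98 in C57BL/6. VillinCreERT2 overlapped Cdk8fl/fl/Cdk19-/-, which overlapped CDK8iIEC-KO/Cdk19-/- by 1 library, and the last pair of lines stood apart from each other and from the rest.

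The exporter and receptor genes varied far less. Slc51a averaged 110 ± 21.7, 87.4 ± 3.78, 74.6 ± 9.50, 55.9 ± 6.16 and 61.1 ± 7.15 CPM in VillinCreERT2, Cdk8fl/fl/Cdk19-/-, CDK8iIEC-KO/Cdk19-/-, CDK8iIEC-KO and C57BL/6 (SD, n = 3). In the same order, Slc51b averaged 19.6 ± 4.11, 16.3 ± 1.54, 19.4 ± 0.797, 8.23 ± 0.578 and 13.3 ± 2.59 CPM. Nr1h4 means lay between 37.1 ± 3.00 CPM in CDK8iIEC-KO and 52.5 ± 3.30 CPM in Cdk8fl/fl/Cdk19-/-. The CDK8iIEC-KO line thus had the lowest mean in all 3 genes.

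Fgf15 and Nr0b2 were scarce in all 5 lines. Fgf15 ran from 3, 4 and 5 counts in CDK8iIEC-KO/Cdk19-/- (0.223 ± 0.0580 CPM) to 1.55 ± 0.758 CPM in VillinCreERT2 (SD, n = 3). Nr0b2 was highest in CDK8iIEC-KO/Cdk19-/-, at 2.15, 2.26 and 2.05 CPM, against at most 1.30 CPM in any library of the other 4 lines.

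**Figure D3:**
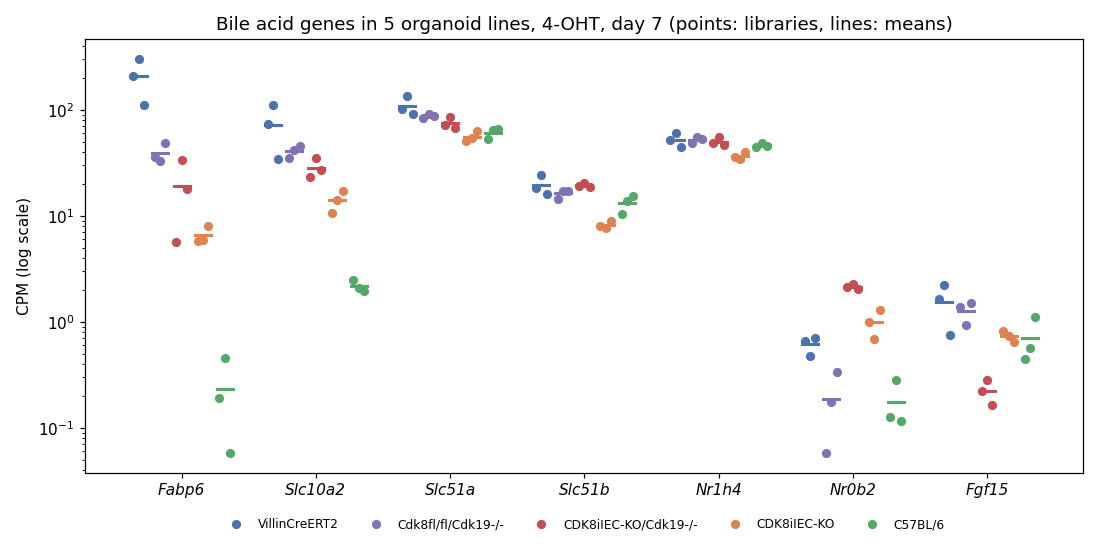
CPM on a log axis of the 7 members in 5 organoid lines, all at day 7 after 4-OHT, where points are libraries and lines are means of 3. Fabp6 spanned line means of 0.234 to 209 CPM, while Nr1h4 stayed between 37.1 and 52.5 CPM.

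Against VillinCreERT2, CDK8iIEC-KO was lower without overlap in 5 of the 7 members, Fabp6 (log2 fold change -4.99), Slc10a2 (-2.38), Slc51b (-1.26), Slc51a (-0.97) and Nr1h4 (-0.49), where 44.9% of 15125 genes did not overlap (24.6% higher and 20.3% lower). CDK8iIEC-KO/Cdk19-/- was lower in Fabp6 (-3.46), Fgf15 (-2.78) and Slc51a (-0.56) and higher in Nr0b2 (1.80), against 59.9% of genes (29.4% higher and 30.5% lower). The Cdk8fl/fl/Cdk19-/- line exceeded C57BL/6 in Fabp6 (7.33), Slc10a2 (4.23), Slc51a (0.52) and Nr1h4 (0.18), against 30.8% (15.1% higher and 15.7% lower). VillinCreERT2, in which neither kinase was targeted, exceeded C57BL/6 in 5 members, Fabp6 (9.74), Slc10a2 (5.06), Nr0b2 (1.75), Slc51a (0.84) and Slc51b (0.56), against 63.7% (31.5% higher and 32.2% lower). The Fabp6 differences from C57BL/6 rest on its 1 to 8 counts, and without C57BL/6 library 2 they were 8.27 for Cdk8fl/fl/Cdk19-/- and 10.67 for VillinCreERT2.

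Regional markers also differed between the lines, not in the order of Fabp6 and Slc10a2 throughout. Cubn, the ileal receptor for vitamin B12 bound to intrinsic factor, averaged 24.2 CPM in VillinCreERT2, 4.82 in Cdk8fl/fl/Cdk19-/-, 1.17 in CDK8iIEC-KO/Cdk19-/-, 0.852 in CDK8iIEC-KO and 1.18 in C57BL/6. The 10 distal genes summed to 1811 to 2526 CPM in VillinCreERT2, 1444 to 1661 in Cdk8fl/fl/Cdk19-/-, 1273 to 1510 in CDK8iIEC-KO/Cdk19-/-, 991 to 1082 in CDK8iIEC-KO and 1123 to 1189 in C57BL/6. Between VillinCreERT2 and C57BL/6, 5 of the 10 did not overlap, all of them higher in VillinCreERT2. Of all genes 63.7% did not overlap (31.5% higher and 32.2% lower). The 17 proximal genes summed to 5650 to 7140 CPM in VillinCreERT2, 6187 to 7196 in Cdk8fl/fl/Cdk19-/-, 8832 to 9125 in CDK8iIEC-KO/Cdk19-/-, 5175 to 6347 in CDK8iIEC-KO and 5648 to 6294 in C57BL/6. Among them Gata4, a transcription factor of the proximal small intestine that the ileum lacks, averaged 179 to 277 CPM over the lines and 237 and 269 CPM in the IEC groups. This marker of the proximal gut was thus present in every line, and ileal names where the 7 genes are known to act, not the origin of the cultures. The 12 enterocyte genes summed to 13768 to 16917 CPM in VillinCreERT2, 12804 to 14758 in Cdk8fl/fl/Cdk19-/- and 13338 to 14401 in CDK8iIEC-KO/Cdk19-/-. Their sum was 8687 to 9587 CPM in CDK8iIEC-KO and 11855 to 12712 CPM in C57BL/6. In CDK8iIEC-KO, 10 of the 12 were lower than in VillinCreERT2 without overlap, where 20.3% of genes were. In CDK8iIEC-KO/Cdk19-/-, 4 were higher and 3 lower. Against VillinCreERT2, CDK8iIEC-KO/Cdk19-/- was lower without overlap in 5 of 5 Paneth, 5 of 5 goblet and 3 of 4 stem cell genes, against 30.5% of genes. The Paneth sums were 786 to 817 CPM against 2716 to 2835, and the stem cell sums 389 to 543 against 1083 to 1301. In CDK8iIEC-KO, 5 of 5 goblet and 3 of 5 Paneth genes were lower, and 1 Paneth and 2 stem cell genes higher. The part of regional identity and of these markers in the differences between lines was not tested.

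In Wnt3-CM, the values that chose Fgf15 were 80.4, 105 and 89.8 CPM under EtOH and 5.01, 4.47 and 5.51 under 4-OHT at day 10, a log2 fold change of -4.19. Gm26793 averaged 2.33 and 0.897 CPM in the same libraries. Slc10a2 was lower, at 30.7, 34.6 and 33.6 CPM against 13.4, 16.2 and 18.1 (-1.05). Slc51a was higher, at 69.1, 65.0 and 72.2 CPM against 102, 108 and 103 (0.60), and so was Slc51b, at 10.3, 12.0 and 12.7 CPM against 17.0, 20.0 and 25.5 (0.83).

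Nr1h4 barely differed, at 65.0, 66.0 and 67.3 CPM against 62.5, 60.1 and 63.8 (-0.09), although its groups did not overlap. All 5 members that passed the filter had groups that did not overlap, where 56.4% of 13745 genes did the same. Fabp6 had 4, 2 and 2 counts under EtOH and 15, 10 and 9 under 4-OHT, and Nr0b2 had 0 counts in all 6 libraries. The enterocyte sum overlapped between the arms (10341 to 11932 and 10080 to 11205 CPM), while 5 of its 12 genes were higher and 4 lower without overlap. The proximal sum was 1516 to 1839 CPM under EtOH and 3816 to 4246 under 4-OHT (12 of 15 genes higher and 2 lower without overlap), and the distal sum 1363 to 1540 and 1959 to 2440 CPM (6 of 9 higher and 2 lower). The 5 goblet cell genes summed to 2455 to 2954 and 1649 to 1740 CPM. The summed level of 5 Paneth cell genes was 6716 to 7428 CPM under EtOH and 1843 to 2258 under 4-OHT, and the part of these markers in the results was not tested.

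In Cdk19D173A/- organoids at day 7, Fgf15 was at 15.8, 19.1 and 16.2 CPM under EtOH and 1.45, 1.35 and 1.27 under 4-OHT (log2 fold change -3.64). Gm26793 averaged 2.5 and 0.436 CPM. Slc10a2 was higher under 4-OHT, at 2.34, 4.14 and 4.46 CPM against 6.91, 9.58 and 9.0 (1.22), as was Slc51b, at 8.24, 9.71 and 9.73 CPM against 12.6, 21.4 and 21.6 (1.00). The low Fgf15 under 4-OHT was among the values by which the genes were chosen, so its direction here is no added result.

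Nr1h4 was at 52.6, 54.9 and 53.9 CPM against 66.5, 72.1 and 73.5 (0.39), and Slc51a overlapped, at 74.9, 77.6 and 77.3 CPM against 75.1, 109 and 114 (0.37). In this comparison 43.2% of 15457 genes did not overlap between the arms. Fabp6 had 1 to 5 counts, and Nr0b2 had 2, 13 and 6 counts under EtOH and 7, 15 and 22 under 4-OHT. The enterocyte sum was 16414 to 17852 CPM under EtOH and 19917 to 22001 under 4-OHT, the Paneth sum 3190 to 3438 and 1648 to 1942 CPM, and the stem cell sum 739 to 838 and 401 to 451 CPM. The proximal sum was 5282 to 5333 and 8202 to 11314 CPM (12 of 17 genes higher and 1 lower without overlap), the distal sum 1861 to 2051 and 2323 to 2419 CPM (4 of 10 higher), and the goblet sum 4503 to 5164 and 3329 to 4237 CPM. The part of these markers in the results was not tested. One 4-OHT library stood apart, with 910 CPM summed over 4 hepatocyte genes, mostly Alb, against 24.9 and 27.6 CPM in the other 4-OHT libraries and 9.85 to 9.94 under EtOH. Its Fgf15 level of 1.27 CPM was like those of the other 4-OHT libraries, and the Fgf15 difference ranged from -3.71 to -3.57 on leaving out each library in turn.

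**Figure D4:**
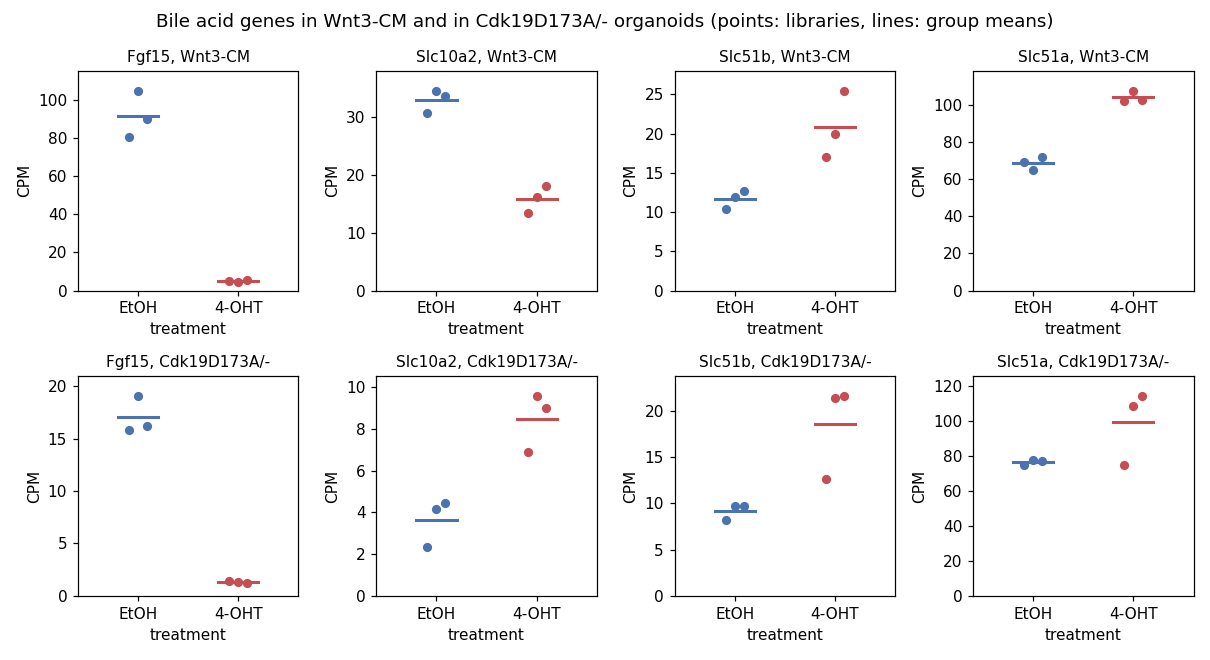
CPM (linear axes from 0) of Fgf15, Slc10a2, Slc51b and Slc51a in Wnt3-CM at day 10 (top) and in Cdk19D173A/- organoids at day 7 (bottom) under EtOH (blue) and 4-OHT (red), where points are libraries and lines are means of 3. Fgf15 was lower under 4-OHT in both settings, and Slc10a2 was lower in Wnt3-CM and higher in Cdk19D173A/- organoids.

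In IECs of mice no member was called between CDK8iIEC-KO/Cdk19-/- and VillinCreERT2, of 7 that passed the filter, against 1.5% of 15182 genes by edgeR. Fabp6, Slc10a2, Slc51a, Slc51b and Nr1h4 had at least 197 counts in every library. At an unadjusted p under 0.05, 3017 genes of the table passed, and DESeq2 called 1 member, Fabp6.

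Fabp6 was at 103, 91.2 and 41.7 CPM in VillinCreERT2 mice and 28.3, 44.0 and 22.5 CPM in CDK8iIEC-KO/Cdk19-/- mice. The groups overlapped by 1 library, and the log2 fold change was -1.32 ± 0.41 (adjusted p = 0.169, edgeR, and 0.00527 by DESeq2). Slc10a2 was at 24.1, 14.1 and 11.2 CPM against 10.8, 12.1 and 9.66 (-0.60, adjusted p = 0.293, edgeR). Both genes had their highest values in the same VillinCreERT2 library.

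Neither exporter subunit nor the receptor was called. Slc51a was at 512, 427 and 421 CPM against 378, 431 and 456 (-0.10, adjusted p = 0.661, edgeR), and Slc51b at 102, 89.3 and 94.8 CPM against 114, 133 and 99.2 (0.27, adjusted p = 0.282, edgeR). Nr1h4 was at 49.4, 45.6 and 43.8 CPM against 44.5, 57.3 and 49.5 (0.13, adjusted p = 0.566, edgeR). The groups overlapped in all 3 genes.

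Nr0b2, the repressor SHP, was better detected here than in organoids, at 4.55, 2.99 and 1.39 CPM against 8.11, 3.02 and 9.61 (1.22, adjusted p = 0.282, edgeR). Fgf15 was scarce, with 6, 15 and 14 counts in VillinCreERT2 mice and 81, 0 and 16 counts in CDK8iIEC-KO/Cdk19-/- mice (1.37, adjusted p = 0.584, edgeR). A count of 0 allows up to 3 counts, and without CDK8iIEC-KO/Cdk19-/- library 1 the sign turned (-0.67).

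**Figure D5:**
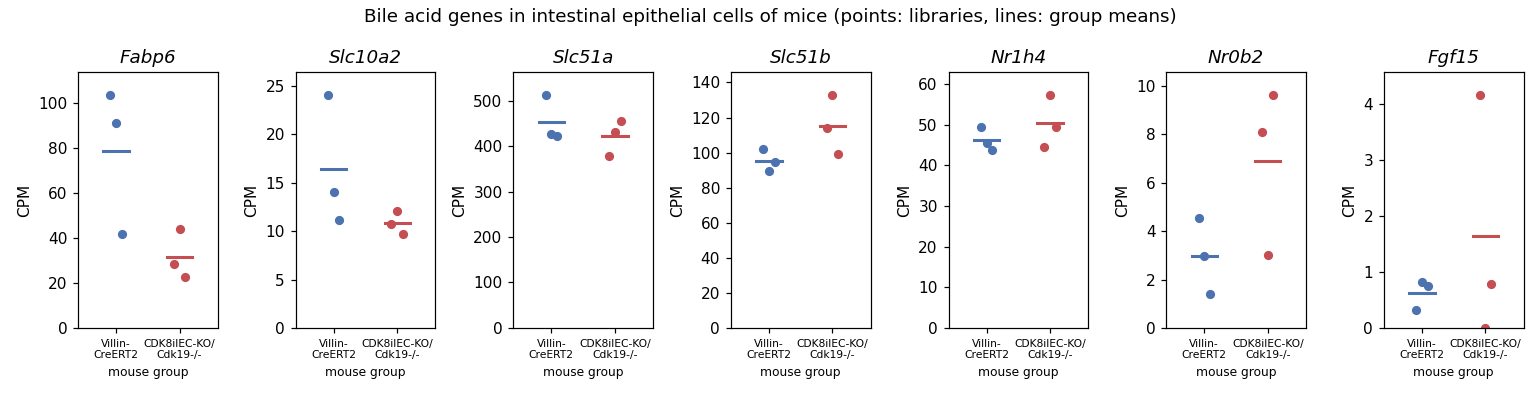
CPM (linear axes from 0, 1 panel per gene) of the 7 members in IECs of VillinCreERT2 (blue) and CDK8iIEC-KO/Cdk19-/- (red) mice, where points are libraries and lines are means of 3. The groups overlap in every gene shown, including Fabp6 with means of 78.8 and 31.6 CPM.

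Per kilobase of exon, the most abundant members in VillinCreERT2 IECs were Fabp6 (164 ± 68.2 CPM per kilobase, SD, n = 3), Slc51a (142 ± 15.9) and Slc51b (135 ± 9.03), which did not differ beyond their spread. Nr1h4 followed at 20.1 ± 1.25, Slc10a2 at 3.96 ± 1.63, Nr0b2 at 2.63 ± 1.40 and Fgf15 at 0.206 ± 0.0861 CPM per kilobase. In the VillinCreERT2 organoids of day 7, Fabp6 was at 436 ± 203 CPM per kilobase, Slc51a at 34.3 ± 6.78 and Slc51b at 27.7 ± 5.80.

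Of the bile acid list in IECs, 24 of 30 genes passed the filter and 3 fell, Cyp3a25 (-1.34, adjusted p = 0.0200, edgeR), Abcc2 (-1.07, adjusted p = 0.0417, edgeR) and Cyp3a13 (-1.03, adjusted p = 0.0332, edgeR), while none rose. The list's median log2 fold change was -0.28. Of the 10 distal genes 3 fell, Cubn (-2.50), Clec2h (-1.05) and Mep1b (-0.62), and their sum was 5955 to 6750 CPM in VillinCreERT2 and 3437 to 4639 CPM in CDK8iIEC-KO/Cdk19-/- mice. The enterocyte sum was 43034 to 46269 and 36781 to 43157 CPM, with 0 of 12 genes called by edgeR. Secretory and stem cell genes were lower, with sums of 9986 to 11979 and 4068 to 4942 CPM for 5 goblet cell genes (2 called), 3613 to 5908 and 897 to 1975 CPM for 5 Paneth cell genes (3 called) and 679 to 955 and 277 to 437 CPM for 4 stem cell genes (2 called). Mesenchymal genes summed to 4.6, 30.7 and 582 CPM in VillinCreERT2 and 304 to 625 CPM in CDK8iIEC-KO/Cdk19-/- mice (0 of 5 called by edgeR). Pancreatic genes summed to 0.267 to 4.02 CPM in VillinCreERT2 and 4.27 to 44.5 CPM in CDK8iIEC-KO/Cdk19-/- mice (0 of 5 called by edgeR). Proliferation genes summed to 237 to 298 and 140 to 231 CPM (1 of 4 called lower). Immune genes summed to 1655 to 2753 CPM in VillinCreERT2 and 1567 to 2202 CPM in CDK8iIEC-KO/Cdk19-/- mice, with 0 of 6 called by edgeR and a median log2 fold change of 1.23. The part of these markers in the Fabp6 values was not tested.

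Across all 19 groups, Fgf15 was highest in Wnt3-CM under EtOH (91.6 ± 12.2 CPM) and next at day 3 of the time course under EtOH (39.4 ± 0.644 CPM), and neither overlapped any other group. Cdk19D173A/- organoids under EtOH (17.0 ± 1.77), the time course under EtOH at day 5 (14.9 ± 3.62) and under 4-OHT at day 3 (14.1 ± 4.09) overlapped their neighbours. All 5 lines of day 7 lay below 2.3 CPM in every library. The tables of the time course, Wnt3-CM, kinase-dead organoids, lines and IECs were scaled separately, so these levels are set side by side without a test. CDK8iIEC-KO/Cdk19-/- organoids of day 7 existed in 2 tables, and there Fgf15 averaged 7.33 ± 2.13 CPM in the time course and 0.223 ± 0.0580 CPM among the lines, while Fabp6 averaged 1.73 ± 1.00 and 19.1 ± 13.9 CPM. By the line numbers in their column names, these were different lines of the same genotype, so line and table cannot be told apart.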

How the data were processed

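The counts were made by the authors, who sequenced poly-A RNA and deposited whole-number counts per gene. Per the labels, STAR 2.5.2 and featureCounts (Subread 1.6.3) were used with mm10, and whether strand was used is not given in the sources used here. Tables held 54752 genes and 63 library columns, of which 57 were used and 6 IEC columns, whose letter codes the labels do not explain, were not. The 6 Wnt3-CM and 6 Cdk19D173A/- columns were tied to a group only, and the latter by elimination. Each table was filtered (filterByExpr), scaled (TMM) and fitted with edgeR 4.0.16 in R 4.3.3 using the robust quasi-likelihood test, with Benjamini-Hochberg adjustment over all genes tested. Time-course tests used all 8 groups. The SE is the log2 fold change over the root of the F statistic. Tests were run on simulated counts, where 98.5% of 200 genes changed by 1.5 on the log2 scale were recovered at day 7 (15013 genes) and 75% in IECs (14924 genes). Of the calls, 1.01% were false at day 7 and 6.25% in IECs. The changed genes were drawn only from those above a minimum mean level, so recovery of scarcer genes was not checked. Alternatives were limma-voom 3.58.1, DESeq2 1.42.0, upper quartile scaling, no filter, at least 10 counts in every library, a replicate block, fits of only the groups compared, and leaving out each library. GENCODE M21 held 53861 of the identifiers. The members and all gene lists were chosen with earlier results of these data known. The genes named were all members, the called genes of the bile acid list or its largest, and the 5 genes most alike per member (log2 of CPM + 0.5, at least 10 CPM in 1 group). Depth was 15485959 to 32909565 counts per library.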

Additional observations from a re-analysis of the deposited data

Results flagged for a closer look

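The responses of 4 members to 4-OHT differed between day 10 and day 3 in a test of the difference itself (edgeR, 3 libraries per group). Slc51a differed by 2.27 on the log2 scale, Slc51b by 1.75, Nr1h4 by 1.27 and Slc10a2 by -1.26, and leaving out any one library changed none of these calls. Of these, Slc10a2 and Nr1h4 also had log2 fold changes of opposite sign at day 10 in Wnt3-CM and in the time course. Slc10a2 was at -1.05 in Wnt3-CM and 0.50 in the time course, which was under the fold cutoff. Nr1h4 was at -0.0887 and 0.74, and barely differed in Wnt3-CM (66.1 CPM under EtOH and 62.1 under 4-OHT). Their groups did not overlap in either setting, but neither did those of 56.4% of 13745 genes in Wnt3-CM. The difference between the settings was not tested, because the tables were fitted separately.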

How the results depend on the processing

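Of 355 member values recomputed with every library kept, 344 kept their direction and their side of the cutoffs, 5 passed the cutoffs in addition, none lost a call and 6 changed sign. Of 516 with 1 library left out, 485 kept both, 4 lost a call, 8 gained one, 8 changed sign and 11 values without a test, of Fabp6, Nr0b2 and Fgf15 in the lines and kinase-dead organoids, moved by more than the spread between libraries. The count of members called between EtOH day 10 and day 3 was 3, not 1, with at least 10 counts in every library and with upper quartile scaling, both adding Slc10a2 (-0.64 by upper quartile) and Slc51a (-0.59), and 1 to 2 on leaving out a library. In IECs DESeq2 called 1 member and edgeR 0. Slc51a at day 5 had a log2 fold change of 0.00 and turned positive with at least 10 counts (0.0195), upper quartile scaling (0.0294), limma-voom (0.00610), only the groups compared (0.00527) and the replicate block (0.00102), and it ran from -0.128 to 0.0617 over left-out libraries. Fgf15 in IECs was at -0.49 by limma-voom and -0.67 to 1.95 over left-out libraries. Sign changes on leaving out a library also occurred for Slc51b at day 3 (-0.16 to 0.0499) and between EtOH days (-0.18 to 0.0229), and for Fabp6 between the responses (-0.22 to 0.71). Fgf15 between the responses passed without 4-OHT day 3 library 3 (-0.89, adjusted p = 0.0443, edgeR). The cause of these changes was not tested. Replicate numbers were not used to pair the samples, since not every same-numbered pair correlated in its deviations by over 0.1. With 3 libraries per group this check cannot exclude pairing. The replicate block changed no count of calls by over 1.5 times. No block was fitted for Wnt3-CM and Cdk19D173A/- organoids, whose values are given without a test and whose column numbers are not tied to label numbers. Depth limits Fabp6 in the time course (5 to 47 counts), Fgf15 in IECs (0 to 81 counts) and Nr0b2 in organoids.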

Other observations

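Over the 17 organoid groups, the log2 levels of Slc51a and Slc51b had a Pearson r of 0.78, those of Slc51a and Nr1h4 0.81, those of Slc51b and Nr1h4 0.71 and those of Fabp6 and Slc10a2 0.61. Fgf15 stood at -0.62 with Nr0b2, -0.54 with Fabp6 and -0.50 with Slc51b. With the 2 IEC groups added, the correlation of Slc51a with Nr1h4 was 0.32. The points share lines, tables and control libraries, and the values are a description with no test.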
